A study of Mus musculus with 9 samples.

Results

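Genes that cells use in G2 and mitosis were followed in BV2 cells, a line of mouse microglia made immortal with oncogenes, after RNA interference against Nus1. Nus1 encodes a subunit of the enzyme that makes the dolichol lipid on which N-glycans are built. The members were chosen by name, with earlier results of these data known. A list of 40 symbols covering cyclins with their kinase, spindle checkpoint proteins, kinetochore proteins, motors and chromosome proteins was looked up in the deposited table, and all 40 were found among its 16398 genes. The cells were wild type and received siRNA 644, siRNA 878 or the control that the labels call NC, whose sequence was not given in the sources used here. Every group went through the same transfection with RNAiMAX and was harvested at 48 h. There were 3 groups of 3 biological replicates, 9 libraries in all. The labels do not say whether the replicates were separate transfections, so p-values measure the spread between these samples, which may be technical. BV2 cells divide in culture without end, unlike most microglia in the brain, and their cell cycle is that of a transformed line.

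As background, a dividing cell copies its DNA in S phase, passes through G2 and separates the copies in mitosis. Cyclins A and B activate the kinase Cdk1, Polo and Aurora kinases help to build the spindle, and the spindle checkpoint holds back the anaphase-promoting complex until every chromosome is attached. The complex then marks securin and cyclin B for destruction, separase cuts cohesin, and the cell divides. The mRNAs of most of these genes accumulate late in the cycle. Their promoters often carry a cell cycle genes homology region, the CHR, which the MuvB complex binds, together with CCAAT boxes, which NF-Y binds. MuvB represses such genes as part of the DREAM complex and activates them together with B-Myb and FOXM1. Microglia divide rarely in the healthy adult brain and more often after injury.

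The promoter windows of the members were read from RefSeq on build GRCm38.p6, as 250 bases before and 50 bases after the annotated start. The source held 32851 windows for 27025 genes. Where a gene had several, only the first listed was read, so motifs at other starts were not searched. A window was at hand for 34 of the 40 members, and the 6 without one were Ccna2, Aurkb, Cdc25c, Tpx2, Kif20a and Smc4. The stretches below, of 150 bases before and 30 bases after the start, were picked by fold change. They belong to the called members with the deepest average fall in each of 4 roles and to the member with the smallest change. Other members whose window held neither motif are named further below. Capitals mark a CHR (TTTGAA or TTCGAA) or a CCAAT box on either strand, so that ATTGG is a CCAAT box on the strand opposite to the gene.
Ect2: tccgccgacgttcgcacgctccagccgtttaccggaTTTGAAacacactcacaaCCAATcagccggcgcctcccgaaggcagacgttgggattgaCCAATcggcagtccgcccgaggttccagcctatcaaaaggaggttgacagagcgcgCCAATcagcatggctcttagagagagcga
Bub1: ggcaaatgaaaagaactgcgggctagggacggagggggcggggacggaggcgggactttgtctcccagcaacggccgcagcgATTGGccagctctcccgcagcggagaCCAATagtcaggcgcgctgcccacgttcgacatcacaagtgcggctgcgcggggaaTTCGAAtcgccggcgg
Cenpf: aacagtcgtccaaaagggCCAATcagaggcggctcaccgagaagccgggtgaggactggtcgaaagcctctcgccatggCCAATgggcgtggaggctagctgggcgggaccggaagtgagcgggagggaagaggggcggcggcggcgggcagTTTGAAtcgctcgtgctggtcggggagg
Hmmr: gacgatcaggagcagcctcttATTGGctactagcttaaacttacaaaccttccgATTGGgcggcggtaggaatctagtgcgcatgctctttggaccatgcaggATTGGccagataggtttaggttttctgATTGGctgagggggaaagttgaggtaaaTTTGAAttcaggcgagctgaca
Mad2l1: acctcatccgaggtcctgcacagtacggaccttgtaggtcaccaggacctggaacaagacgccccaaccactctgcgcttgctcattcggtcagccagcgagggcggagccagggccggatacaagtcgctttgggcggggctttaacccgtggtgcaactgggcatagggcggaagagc
Ect2 (gene ID 13605) was read from chr3:27153849-27154028, Bub1 (gene ID 12235) from chr2:127831830-127832009, Cenpf (gene ID 108000) from chr1:189688057-189688236 and Hmmr (gene ID 15366) from chr11:40733408-40733587, each on the minus strand. Mad2l1 (gene ID 56150) was read from chr6:66535071-66535250 on the plus strand. Bub1 had its CHR 15 bases after the start and CCAAT boxes 68 and 42 bases before it. Cenpf had its CHR 3 bases after the start, and Hmmr had its CHR 9 bases after it behind 4 CCAAT boxes. Ect2 had a CHR 114 bases before the start, with CCAAT boxes between it and the start. The stretch of Mad2l1 held neither motif.

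In the windows of 300 bases, searched on both strands with overlapping matches counted, 27 of 34 members held a CHR, which is 79.4% (95% Wilson interval 63.2% to 89.7%). Among 9484 tested genes with a window the share was 14.3%, and among all 27025 genes with a window it was 19.4%. CCAAT occurred in 25 member windows (73.5%), against 39.5% of tested genes. A CHR together with a CCAAT box stood in 23 member windows (67.6%), against 6.33% of tested genes. The CHR lay mostly near the start: 25 members (73.5%) had a CHR that began no more than 50 bases before the start or after it, against 3.61% of tested genes. With only the last 150 bases before the start searched, 11 members (32.4%) kept a CHR, against 6.33% of tested genes, while the CCAAT count was again 25. An E2F site, for which the words TTTCCCG and then TTTGGCG and then also TTTCGCG were searched, was in 3 member windows (8.82%), against 10% of tested genes. The forkhead core TGTTTAC was in 2 member windows (5.88%), against 2.47% of tested genes. A match is a run of letters and was not tested as a binding site. By the table's positions the members were spread over 16 chromosomes, with 7 of 40 on chromosome 2, so the list is no cluster of neighbours.

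The libraries held 19362331 to 20224707 estimated counts, 11739 genes passed the filter on low counts, and so did each of the 40 members, which had at least 72 counts in every library. Nus1 was at 3.93, 4.15 and 3.46 CPM, counts scaled by library depth, with siRNA 644 and at 8.01, 3.73 and 8.35 CPM with siRNA 878, against 51.4, 50.1 and 53.4 CPM in control cells. The labelled knockdown was thus seen in all 6 siRNA libraries. Of 14 microglia markers none was at 0, and Cd68, Tyrobp, Csf1r and Trem2 were among the well expressed, while P2ry12 and Tmem119 stayed between 0.13 and 1.57 FPKM, a level scaled by depth and transcript length. Their summed level was 3178 to 3313 FPKM with siRNA 644 and 2619 to 3187 FPKM with siRNA 878, against 2893 to 3160 FPKM in control cells. Cx3cr1, a chemokine receptor of microglia, fell by 2.65 and by 3.0 on the log2 scale with siRNA 644 and siRNA 878 against control. The 13 markers of other brain cells in the table summed to 1.61 to 2.14, 1.09 to 1.42 and 1.71 to 1.96 FPKM with siRNA 644, with siRNA 878 and in control cells, and the astrocyte, neuron and endothelial genes Gfap, Aldh1l1, Rbfox3, Snap25 and Cldn5 had at most 2 counts in any library. Of the 5 that could be tested, 3 were called lower with siRNA 878, against 0 without its replicate 1 or 3 or without control replicate 2, 1 without control replicate 1 or 3 and 1 with a replicate block. Tubb3, a neuronal tubulin, was called higher with siRNA 644, a call lost in 10 of 19 alternatives. Their part in the results below was not tested.

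The G2 and mitosis genes fell together with both siRNAs. Their share of all counts was 0.278%, 0.300% and 0.283% with siRNA 644 and 0.309%, 0.260% and 0.303% with siRNA 878, against 0.607%, 0.562% and 0.607% in control cells. Every siRNA library was below every control library. Summed over the members, the level was 1208 ± 15.1 FPKM with siRNA 644 and 1190 ± 42.1 FPKM with siRNA 878, against 2337 ± 37.6 FPKM in control cells (SD, n = 3 each), which is 51.7% and 50.9% of control. In these bulk libraries, fewer cells in G2 and mitosis and less of each mRNA per cell cannot be told apart.

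With siRNA 644, 38 of 40 members were called lower than control by edgeR's quasi-likelihood test at an adjusted p under 0.05, where 15% of all tested genes were called lower, and 0 were called higher, where 16.6% of all genes were. With siRNA 878 the count was again 38 of 40, where 15.5% of all genes were called lower, and 0 were called higher, against 16% of all genes. The 3 siRNA libraries were all below the 3 control libraries for 40 of 40 members with siRNA 644, where 27.7% of all genes lay that way, and for 39 of 40 with siRNA 878, where 22.6% did. No member had its siRNA libraries all above control, as 28% and 22.5% of all genes had with siRNA 644 and siRNA 878. At an unadjusted p under 0.05, 39 of 40 members passed in each comparison, where 43.2% and 42.6% of all genes did. Both comparisons share the control libraries. Fold changes here and below were fitted by edgeR on the counts, and levels are given in FPKM. The median log2 fold change of the members was -1.10 with siRNA 644 and -0.96 with siRNA 878, beside -0.01 and 0.00 over all tested genes. A called fall of at least 2-fold was seen for 23 members with siRNA 644, against 2.56% of all genes, and for 17 with siRNA 878, against 3.29%. Leaving out replicate 2 of siRNA 878, which stood apart from its group, the counts called lower were 40 and 38 with siRNA 644 and siRNA 878, where 25.3% and 20.3% of all genes were called lower.

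**Figure D1:**
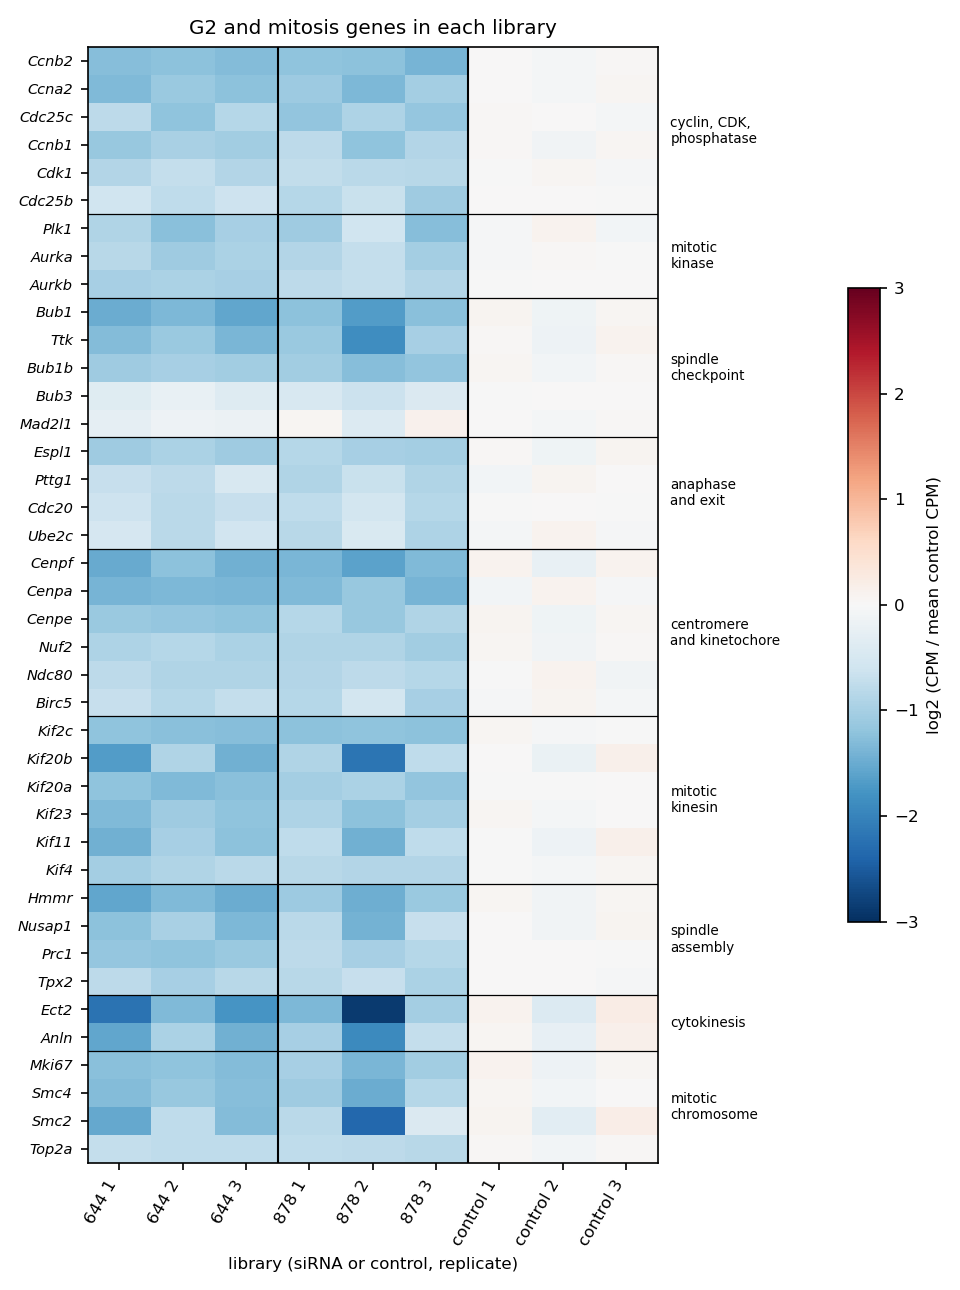
Heat map of the 40 G2 and mitosis genes (rows, grouped by role) in the 9 libraries (columns), coloured by log2 of CPM over the mean control CPM. Blue fills nearly all rows under the 6 siRNA libraries, Mad2l1 and Bub3 are the pale rows, and replicate 2 of siRNA 878 is the darkest column for Smc2, Ect2 and Kif20b.

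Levels differed widely among the members, while the relative falls were close only for the middle of them. Log2 fold changes ran from -1.72 to -0.2 with siRNA 644 and from -1.55 to -0.06 with siRNA 878. In control cells Ube2c was at 372 FPKM and Tpx2, the activator of Aurora A on the spindle, at 147 FPKM, whereas Ect2 was at 7.71 and Smc2 at 8.94 FPKM. The middle of the members, from the 25th to the 75th percentile, lay between -1.25 and -0.87 on the log2 scale with siRNA 644 and between -1.15 and -0.83 with siRNA 878. Members with a CHR in the window had a median mean change of -1.09 (n = 27, from -1.63 to -0.42), and the 7 without had -0.93 (from -1.06 to -0.13). The 7 were Ccnb1, Mad2l1, Pttg1, Cenpe, Nuf2, Birc5 and Nusap1, and all but Mad2l1 were called lower with both siRNAs. Among all members 38 of 40 were called lower with each, against 15% and 15.5% of all tested genes. Of the 7, Mad2l1, Pttg1, Nuf2, Birc5 and Nusap1 also had no CCAAT box in the window, with mean changes from -1.06 to -0.13. Whether the motifs bear on the falls was not tested.

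**Figure D2:**
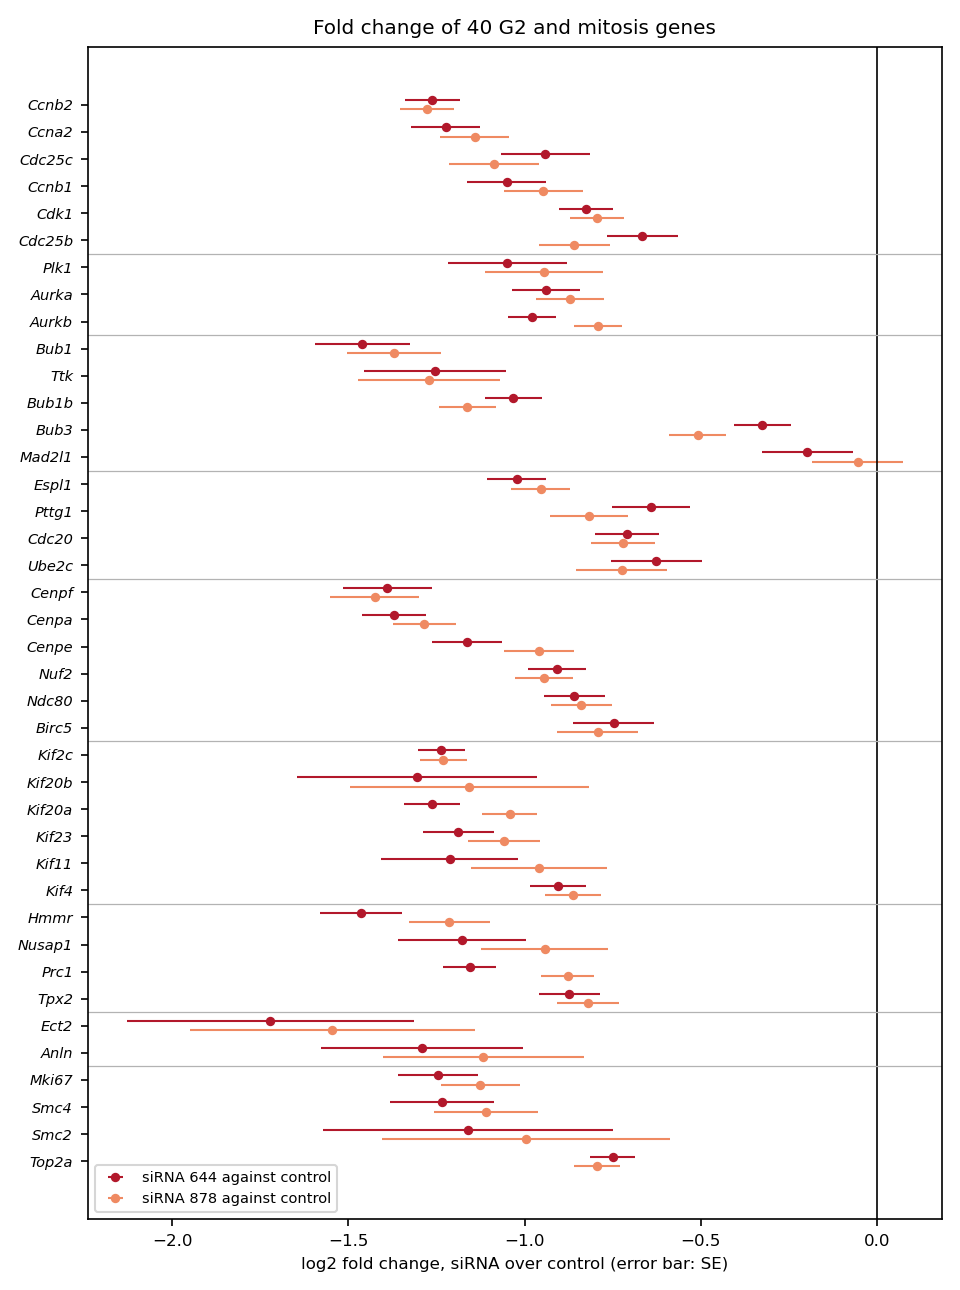
Log2 fold change of each member over control (points) with its SE (bars) for siRNA 644 and siRNA 878, in groups by role. Points lie between -1.72 and -0.06, and bars are longest for Ect2, Smc2 and Kif20b.

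The cyclins, Cdk1 and the phosphatases that switch it on fell with both siRNAs, 6 of 6 with each. Ccnb2, a B-type cyclin, had the deepest fall of the group and its highest mean level over all 9 libraries. It was at 36.2, 40.4 and 36.7 FPKM with siRNA 644 and at 39.6, 34.7 and 35.1 FPKM with siRNA 878, against 95.3, 87.8 and 96.9 FPKM in control cells. The lowest control library was above the highest siRNA library by a wide margin. Its log2 fold change was -1.26 ± 0.08 with siRNA 644 (SE, edgeR adjusted p = 1.1e-05) and -1.28 ± 0.08 with siRNA 878 (adjusted p = 1.03e-05). Ccna2, the cyclin of S phase and G2, fell by 1.22 and 1.14 on the log2 scale with siRNA 644 and siRNA 878, and Ccnb1, the main mitotic cyclin, by 1.05 and 0.95. Cdk1 itself fell less deeply, to 56.4% and 57.7% of control. The smallest average fall was that of Cdc25b, a phosphatase that removes the inhibitory phosphates of Cdk1. It was at 27.7, 26.6 and 28.1 FPKM with siRNA 644 and at 24.2, 24.5 and 21.5 FPKM with siRNA 878, against 45.5, 44.6 and 44.6 FPKM in control cells. No library of either siRNA reached the control range. The siRNA 878 libraries were all below the siRNA 644 libraries in FPKM but overlapped with them in CPM, and that difference was not called (adjusted p = 0.422). The log2 fold changes were -0.67 ± 0.10 and -0.86 ± 0.10 (adjusted p = 0.00136 and 0.000335 with siRNA 644 and siRNA 878). Cdc25c, a phosphatase of the same family, fell by 0.94 and 1.09.

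All 3 mitotic kinases fell with each siRNA. Plk1, the Polo kinase of mitotic entry and spindle assembly, was at 60.5, 51.1 and 58.5 FPKM with siRNA 644 and at 56.8, 70.4 and 50.1 FPKM with siRNA 878, against 121, 127 and 116 FPKM in control cells. Replicate 2 of siRNA 878 was its highest siRNA library and still well below control. On the log2 scale its change was -1.05 ± 0.17 with siRNA 644 and -0.94 ± 0.17 with siRNA 878 (adjusted p = 0.00185 and 0.00296). Aurka, the Aurora kinase of centrosomes and spindle poles, was at 62.9, 56.9 and 59.2 FPKM with siRNA 644 and at 62.8, 62.9 and 57.6 FPKM with siRNA 878, against 117, 119 and 119 FPKM in control cells. Replicates lay close together in each group, and the fall was by 0.94 and 0.87. Aurkb, the Aurora kinase of the chromosomal passenger complex, was at 30.0, 33.8 and 31.1 FPKM with siRNA 644 and at 36.6, 33.8 and 34.9 FPKM with siRNA 878, against 64.2, 63.7 and 65.1 FPKM in control cells. The groups did not overlap with control, and the log2 fold changes were -0.98 ± 0.07 and -0.79 ± 0.07 (adjusted p = 2.03e-05 and 6.54e-05).

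The spindle checkpoint was the group in which members differed most. Bub1, Bub1b and Ttk fell to 36.3% to 48.9% of control, Bub3 fell slightly, and Mad2l1 was not called with either siRNA, so 4 of 5 were called with each. Bub1, a kinase that recruits checkpoint proteins to kinetochores, was at 8.6, 10.2 and 8.37 FPKM with siRNA 644 and at 10.7, 6.95 and 10.8 FPKM with siRNA 878, against 27.3, 22.9 and 27.0 FPKM in control cells. The fitted log2 change was -1.46 ± 0.13 with siRNA 644 and -1.37 ± 0.13 with siRNA 878 (adjusted p = 9.15e-05 and 0.000122). Ttk, the Mps1 kinase at the top of the checkpoint, fell by 1.26 and 1.27, and Bub1b, the BubR1 protein of the mitotic checkpoint complex, by 1.03 and 1.16.

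Bub3 carries Bub1 and BubR1 to kinetochores. It was at 58.4, 69.9 and 58.8 FPKM with siRNA 644 and at 56.7, 45.3 and 59.7 FPKM with siRNA 878, against 80.8, 78.9 and 81.8 FPKM in control cells. The ranges did not meet, but the siRNA libraries were nearer to control than for most members. The log2 fold change was -0.33 ± 0.08 with siRNA 644 (adjusted p = 0.0150) and -0.51 ± 0.08 with siRNA 878 (adjusted p = 0.00161). The call with siRNA 644 was lost with offsets for transcript GC content and length (-0.13, adjusted p = 0.211) and without replicate 1 or 3 of siRNA 644 or any 1 control library (adjusted p = 0.0514 to 0.0718). Mad2l1, the Mad2 protein that binds Cdc20, was at 23.5, 26.7 and 25.4 FPKM with siRNA 644 and at 29.9, 20.1 and 31.9 FPKM with siRNA 878, against 30.5, 27.9 and 30.8 FPKM in control cells. The siRNA 644 libraries lay just below control, and those of siRNA 878 lay on both sides of it. The log2 fold change was -0.20 ± 0.13 with siRNA 644 (adjusted p = 0.274) and -0.06 ± 0.13 with siRNA 878 (adjusted p = 0.781). Without replicate 2 of siRNA 878 the value with siRNA 644 was called (adjusted p = 0.0338). With the GC and length offsets and a replicate block that value was above 0, at 0.12, and was not called.

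**Figure D3:**
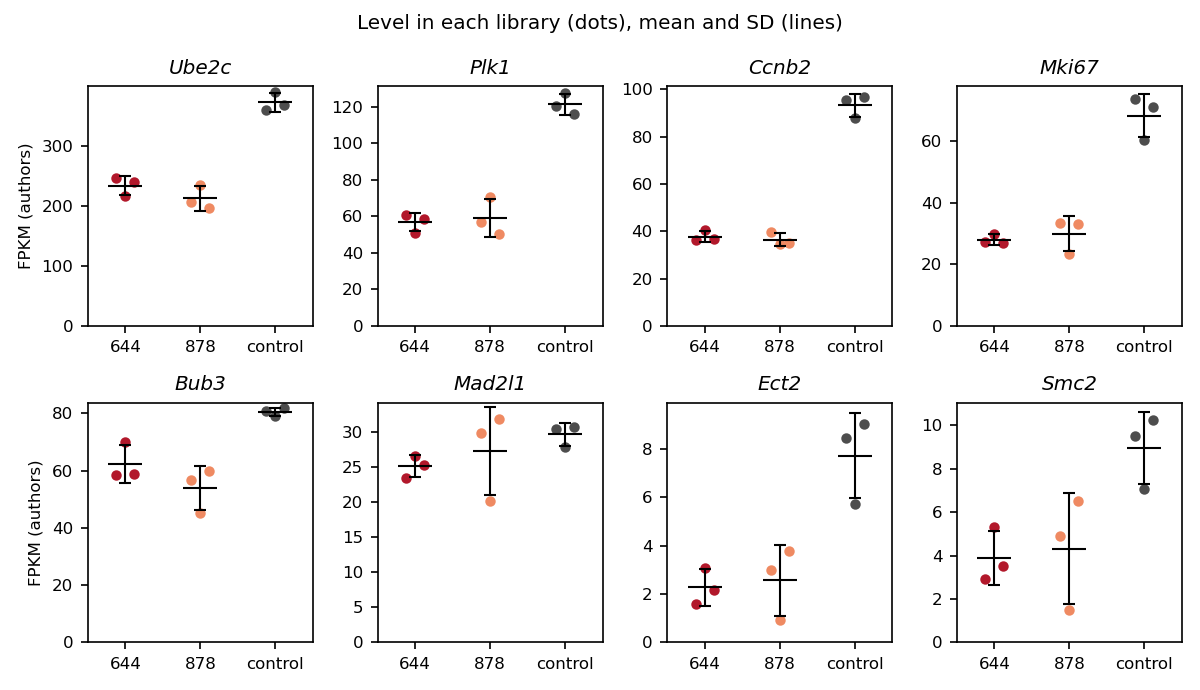
FPKM of 8 members in each library (dots) with the group mean and SD (lines), for siRNA 644, siRNA 878 and control. Ube2c, Plk1, Ccnb2 and Mki67 drop clearly below control, Bub3 and Mad2l1 stay near it, and Ect2 and Smc2 are low with wide spreads, with replicate 2 of siRNA 878 lowest at 0.93 and 1.51 FPKM.

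The genes of anaphase and mitotic exit fell, 4 of 4 with each siRNA, and each of them less deeply than the median member. Espl1, the separase that cuts cohesin, was at 13.2, 15.4 and 13.6 FPKM with siRNA 644 and at 15.9, 12.9 and 14.3 FPKM with siRNA 878, against 30.2, 26.5 and 31.4 FPKM in control cells. Its log2 fold change was -1.02 ± 0.08 with siRNA 644 and -0.95 ± 0.08 with siRNA 878 (adjusted p = 4.71e-05 and 7.18e-05). Ube2c, the ubiquitin-conjugating enzyme of the anaphase-promoting complex, was the most abundant member. It was at 245, 215 and 239 FPKM with siRNA 644 and at 206, 235 and 196 FPKM with siRNA 878, against 359, 389 and 368 FPKM in control cells. Its relative fall was among the smallest, by 0.63 ± 0.13 and 0.72 ± 0.13 on the log2 scale (adjusted p = 0.00634 and 0.00298), although it lost more FPKM than any other member. Cdc20, the activator of the complex, fell to 61.1% and 60.7% of control, and Pttg1, the securin that keeps separase inactive, to 64.1% and 56.8%.

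Of the centromere and kinetochore members 6 of 6 fell with each siRNA. Cenpf, a large kinetochore protein, was at 3.33, 4.39 and 3.62 FPKM with siRNA 644 and at 3.93, 2.93 and 4.25 FPKM with siRNA 878, against 11.5, 8.73 and 11.4 FPKM in control cells. On the log2 scale its change was -1.39 ± 0.13 with siRNA 644 and -1.43 ± 0.13 with siRNA 878 (adjusted p = 8.81e-05 and 7.76e-05), the deepest of the role. Cenpa, the histone H3 variant that marks centromeres, followed with 38.7% and 41.0% of control. Birc5, the survivin protein of the passenger complex, had the smallest average fall of the role. It was at 63.7, 62.0 and 65.3 FPKM with siRNA 644 and at 58.7, 66.2 and 54.5 FPKM with siRNA 878, against 109, 115 and 108 FPKM in control cells. The siRNA ranges were far below control, with log2 fold changes of -0.75 ± 0.12 and -0.79 ± 0.12 (adjusted p = 0.00149 and 0.00100). Ndc80 and Nuf2, partners in the complex that grips microtubules, fell by 0.86 and 0.84 and by 0.91 and 0.95 with siRNA 644 and siRNA 878. Cenpe, the kinesin that brings chromosomes to the spindle equator, fell by 1.16 and 0.96.

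The mitotic kinesins, motors that shape the spindle and the midzone, also fell 6 of 6 with each siRNA. Kif2c, which depolymerises microtubules at centromeres, had the smallest error of the role. It was at 14.4, 15 and 14.1 FPKM with siRNA 644 and at 14.6, 13.2 and 15 FPKM with siRNA 878, against 37.0, 33.7 and 35.2 FPKM in control cells. The 6 siRNA libraries lay close together, and the log2 fold change was -1.24 ± 0.07 with siRNA 644 and -1.23 ± 0.07 with siRNA 878 (adjusted p = 5.56e-06 with each). Kif20a, a motor of the central spindle and the most abundant of the role, was at 21.9, 21.9 and 21.6 FPKM with siRNA 644 and at 26.0, 24.6 and 23.7 FPKM with siRNA 878, against 54.2, 52.6 and 55.0 FPKM in control cells. Its fall was by 1.26 and 1.04, and the 2 siRNA groups did not overlap. Kif4, a chromosome-bound kinesin, had the smallest fall of the role. It was at 6.95, 8.11 and 8.25 FPKM with siRNA 644 and at 8.22, 7.11 and 8.18 FPKM with siRNA 878, against 15.1, 14.1 and 15.8 FPKM in control cells. The log2 fold change was -0.91 ± 0.08 and -0.86 ± 0.08 (adjusted p = 7.44e-05 and 9.42e-05). Kif11, the motor that pushes spindle poles apart, fell by 1.21 and 0.96, and Kif23, a subunit of centralspindlin, by 1.19 and 1.06.

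Kif20b, a kinesin of cytokinesis, had a wide spread. It was at 4.85, 8.89 and 5.88 FPKM with siRNA 644 and at 8.61, 3.16 and 9.71 FPKM with siRNA 878, against 16.8, 14.0 and 18.5 FPKM in control cells. The siRNA libraries stayed below control but differed widely among themselves. The fitted log2 change was -1.31 ± 0.34 with siRNA 644 (adjusted p = 0.0188) and -1.16 ± 0.34 with siRNA 878 (adjusted p = 0.0299). The call with siRNA 644 was lost without replicate 1 or 3 of that siRNA or control replicate 1 or 3 (adjusted p = 0.0565 to 0.0748). That with siRNA 878 was lost without its replicate 1 or any 1 control library (adjusted p = 0.0506 to 0.0922) and in a fit of those groups alone (adjusted p = 0.0577) and with a replicate block (adjusted p = 0.0556).

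The spindle assembly members fell, 4 of 4 with each siRNA. Hmmr, a microtubule-associated protein of spindle poles, was at 13.4, 17.1 and 14.5 FPKM with siRNA 644 and at 19.4, 13.4 and 19.3 FPKM with siRNA 878, against 44.5, 38.4 and 43.8 FPKM in control cells. Its log2 fold change was -1.46 ± 0.12 with siRNA 644 and -1.21 ± 0.11 with siRNA 878 (adjusted p = 4.26e-05 and 0.000107). Tpx2 had both the highest level and the smallest fall of the role. It was at 79.2, 73.7 and 77.9 FPKM with siRNA 644 and at 80.6, 78.6 and 76.3 FPKM with siRNA 878, against 151, 146 and 146 FPKM in control cells. The 6 siRNA libraries lay within a narrow band, and the log2 fold change was -0.87 ± 0.09 and -0.82 ± 0.09 (adjusted p = 0.000143 and 0.000196). Nusap1, which bundles spindle microtubules, fell by 1.18 and 0.94, and Prc1, which crosslinks microtubules at the midzone, by 1.16 and 0.88.

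Both cytokinesis genes fell with each siRNA, with large errors. Ect2, the exchange factor that activates RhoA at the division plane, was at 1.57, 3.08 and 2.18 FPKM with siRNA 644 and at 2.97, 0.93 and 3.77 FPKM with siRNA 878, against 8.42, 5.70 and 9.01 FPKM in control cells. Its fall was the deepest of all members, to 30.3% and 34.1% of control, and replicate 2 of siRNA 878 was its lowest library. The log2 fold change was -1.72 ± 0.41 with siRNA 644 (adjusted p = 0.0121) and -1.55 ± 0.40 with siRNA 878 (adjusted p = 0.0186). Anln, the anillin scaffold of the contractile ring, was at 7.29, 10.9 and 8.03 FPKM with siRNA 644 and at 9.79, 5.52 and 12.1 FPKM with siRNA 878, against 21.2, 17 and 21.2 FPKM in control cells. The log2 fold change was -1.29 ± 0.29 and -1.12 ± 0.29 (adjusted p = 0.00904 and 0.0167), and the ranges did not meet. The call of Ect2 was lost with siRNA 644 without replicate 1 or 3 of that siRNA (adjusted p = 0.0529 and 0.0513), and the calls of Ect2 and Anln were lost with siRNA 878 without control replicate 1 or 3 (adjusted p = 0.0547 to 0.0653).

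Among the genes of mitotic chromosomes, 3 of 4 fell with each siRNA. Mki67, the Ki-67 protein that coats mitotic chromosomes and marks dividing cells, was at 27.2, 30.0 and 27.1 FPKM with siRNA 644 and at 33.5, 23.4 and 33.1 FPKM with siRNA 878, against 73.7, 60.4 and 71.1 FPKM in control cells. On the log2 scale its change was -1.25 ± 0.11 with siRNA 644 and -1.13 ± 0.11 with siRNA 878 (adjusted p = 8.94e-05 and 0.000148). Top2a, the topoisomerase that untangles sister chromatids, was at 35.7, 37.2 and 35.4 FPKM with siRNA 644 and at 36.2, 31.5 and 35.2 FPKM with siRNA 878, against 65.5, 58.4 and 64.3 FPKM in control cells. It had the smallest average fall of the role, by 0.75 ± 0.06 and 0.79 ± 0.06 (adjusted p = 6.28e-05 and 5.17e-05). Smc4, a core subunit of condensin, fell by 1.23 and 1.11. Smc2, its partner, was at 2.90, 5.30 and 3.5 FPKM with siRNA 644 and at 4.92, 1.51 and 6.54 FPKM with siRNA 878, against 9.49, 7.08 and 10.3 FPKM in control cells. Every siRNA library was below every control library, but the spread within groups was wide. The log2 fold change was -1.16 ± 0.41 with siRNA 644 (adjusted p = 0.0596) and -1.0 ± 0.41 with siRNA 878 (adjusted p = 0.0956), past the threshold in neither. DESeq2 called it with both (adjusted p = 0.0176 and 0.0469).

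No member was called between the siRNAs by edgeR, where 1.51% of all genes were, 3 of 40 had an unadjusted p under 0.05, where 15.1% of all genes did, and DESeq2 called 1, Prc1. The log2 difference of siRNA 878 minus siRNA 644 was above 0 for 27 of 40 members, with a median of 0.08 beside 0.02 over all genes. For 33 of 40 members the 95% interval of the difference lay within 0.5 of 0 on the log2 scale, and the widest intervals were those of Ect2, from -0.76 to 1.11, and Smc2, from -0.77 to 1.10. Prc1 differed most, by 0.28 (interval 0.11 to 0.45, edgeR adjusted p = 0.112). It was at 25.1, 19.4 and 24.4 FPKM with siRNA 878 and at 18.7, 19.4 and 19.8 FPKM with siRNA 644, ranges that met at replicate 2 of siRNA 878. In CPM the siRNA groups did not overlap for Aurkb, Kif20a and Prc1, higher with siRNA 878, where 7.98% of all genes lay so, and for Bub3, lower with siRNA 878, where 10.6% did. Without replicate 2 of siRNA 878, 7 of 40 members were called, the same share as the 17.5% of all genes called then. Of these, Cdc25b was lower with siRNA 878, and Mad2l1, Cenpe, Kif11, Hmmr, Nusap1 and Prc1 were higher, with adjusted p from 0.0113 to 0.0424.

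Replicate 2 of siRNA 878 stood apart from its group for many members. The median SD of log2 CPM over the members was 0.0976 with siRNA 644 and 0.158 with siRNA 878, against 0.0791 in control cells. Set against the geometric mean of replicates 1 and 3, replicate 2 had 0.299 times the CPM of Smc2, 0.312 times that of Ect2 and 0.387 times that of Kif20b, but 1.49 times that of Plk1 and 1.33 times that of Ube2c. Across the 40 members, which share these libraries, the log2 ratio correlated with transcript GC content (Pearson's r = 0.70, a description). Its normalization factor was 0.898, against 0.966 to 1.04 in the other libraries. Member transcripts had a median GC content of 46.0%, below the 50.2% of all genes. With offsets for GC content and length, an alternative added after the data had been seen, the median of the members was -0.998 with siRNA 644 and -0.931 with siRNA 878.

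**Figure D4:**
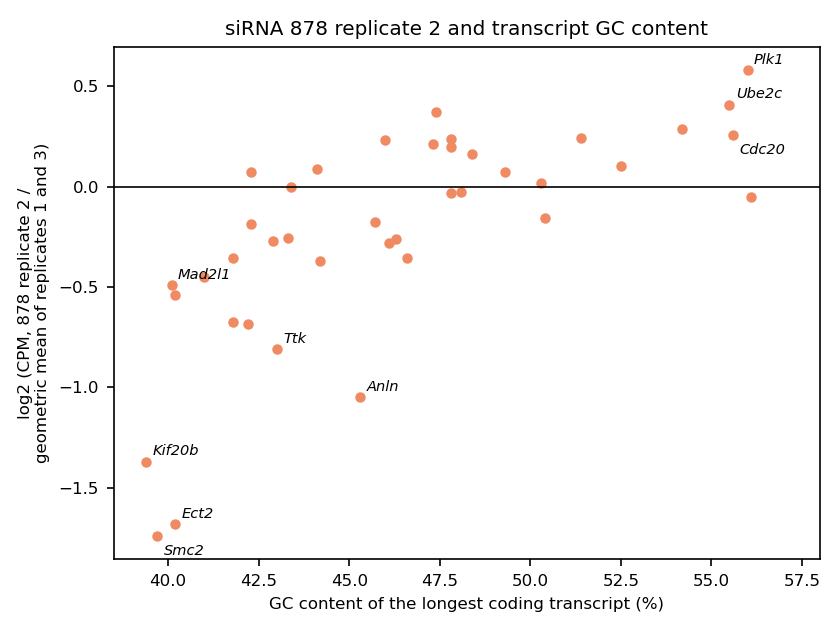
Log2 ratio of CPM in replicate 2 of siRNA 878 to the geometric mean of replicates 1 and 3 (vertical axis) against transcript GC content in percent (horizontal axis), 1 point for each of the 40 members. AT-rich members such as Smc2, Ect2 and Kif20b lie far below 0, and GC-rich members such as Plk1, Ube2c and Cdc20 lie above it.

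Nearly all of 44 listed genes of the spindle, cytokinesis and mitotic entry outside the members were called lower as well. This list and those below were, like the members, chosen with earlier results of these data known. Beside the counts below, 15% and 15.5% of all genes were called lower and 16.6% and 16% higher with siRNA 644 and siRNA 878. Beside the counts given without replicate 2 of siRNA 878, the shares of all genes called lower were 25.3% and 20.3%. Of 44 further genes of the spindle, cytokinesis and mitotic entry, 42 were called lower with siRNA 644 and 41 with siRNA 878, and 0 higher, with medians of -0.87 and -0.82. Cep55, the midbody protein of abscission, fell by 1.76 ± 0.30 and 1.83 ± 0.30 (adjusted p = 0.00253 and 0.00190), and Aspm, a spindle pole protein, by 1.61 ± 0.28 and 1.58 ± 0.28. Depdc1a fell by 1.67 and 1.51, and Iqgap3, a scaffold of the IQGAP family, by 1.16 and 1.65. Ube2s, which extends ubiquitin chains for the anaphase-promoting complex, was not called, at -0.28 (adjusted p = 0.302) and -0.18 (adjusted p = 0.506). It was called with the GC and length offsets, at -0.51 and -0.36, and with both siRNAs without replicate 2 of siRNA 878 (adjusted p = 0.0474 and 0.0143).

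Among 37 further kinetochore and passenger genes, 21 were called lower with siRNA 644 and 23 with siRNA 878, with medians of -0.55 and -0.53. Sgo2a, a shugoshin that shields centromeric cohesin, fell by 1.44 ± 0.20 and 1.39 ± 0.20 (adjusted p = 0.000784 and 0.000857). Knl1, the kinetochore platform for Bub proteins, fell by 1.26 and 1.04, and Spc25, a subunit of the Ndc80 complex, by 0.95 and 1.03. Mis12, which links the kinetochore to the centromere, went the other way, by 0.31 ± 0.09 with siRNA 644 (adjusted p = 0.0236) and 0.36 ± 0.09 with siRNA 878 (adjusted p = 0.0134). Those calls were lost in 6 and 5 of 20 alternatives (adjusted p = 0.0533 to 0.102), among them library sizes alone and the leaving out of replicate 1 or 3 of siRNA 644, replicate 1 of siRNA 878 or single control libraries. Zwint, another outer kinetochore protein, was at -0.03 with siRNA 644 and was called higher with siRNA 878, by 0.21 (adjusted p = 0.0464), a call lost in 14 of 20 alternatives, the replicate block among them (adjusted p = 0.105). The difference between the siRNAs was not past the threshold (adjusted p = 0.132).

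Of the 6 condensin subunits other than the SMC proteins, 4 were called lower with each siRNA, with medians of -0.91 and -0.84. Ncapg and Ncaph of condensin I fell by 1.24 and 1.24 and by 0.94 and 1.03 with siRNA 644 and siRNA 878. Ncapd3 fell by 0.89 and 0.87 and Ncapd2 by 0.54 and 0.61, the count with siRNA 644 being 2 without its replicate 3. Leaving out single libraries ended the calls of Ncapd3 with each siRNA (adjusted p = 0.0635 to 0.0749) and of Ncapd2 with siRNA 644 (adjusted p = 0.0543 and 0.0563, without its replicate 3 and its replicate 2). Of cohesin and its regulators, 5 of 13 were called lower with siRNA 644, and 3 with siRNA 878, with medians of -0.39 and -0.40. The count with siRNA 644 was 9 without replicate 2 of siRNA 878 and 2 or 3 without any 1 library of siRNA 644, replicate 1 of siRNA 878 or any 1 control library. That with siRNA 878 was 5 without its replicate 2 and 7 without its replicate 3. Esco2, the acetyltransferase that locks cohesin in S phase, fell by 1.27 and 1.02 with calls lost in 2 and 6 of 20 alternatives, with siRNA 878 also under a replicate block (adjusted p = 0.0572), and Cdca5, the sororin that holds sister chromatids together, by 0.56 and 0.57. Smc1a, a ring subunit, fell by 0.37 and 0.40, and its calls were lost with the GC and length offsets (adjusted p = 0.184 and 0.148). Mau2, part of the cohesin loader, was called higher with siRNA 878, by 0.43 (adjusted p = 0.00933), a call lost with library sizes alone (adjusted p = 0.0569).

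In the core of the anaphase-promoting complex, 2 of 15 were called lower and 1 higher with siRNA 644, and 3 lower and 1 higher with siRNA 878, with medians of -0.16 and -0.19. Lower calls were near the share of all genes and unstable. With siRNA 644 they numbered 6 without replicate 2 of siRNA 878 and 0 or 1 without any 1 library of siRNA 644, replicate 1 of siRNA 878 or any 1 control library. With siRNA 878 they numbered 8 without its replicate 2 and 1 without its replicate 1 or control replicate 1. Cdc16, a scaffold subunit, was called lower with both, at -0.30 and -0.39, and its call with siRNA 644 was lost in 7 of 20 alternatives. Anapc16, a small subunit, was called higher, by 0.71 ± 0.13 and 1.03 ± 0.13 (adjusted p = 0.00390 and 0.000520). It had 44.1, 36.5 and 39.5 CPM with siRNA 644 and 44.8, 59.1 and 46.6 CPM with siRNA 878, against 23.2, 27.1 and 23.1 CPM in control cells, with no overlap. In the gamma-tubulin ring complex, 0 of 10 were called lower with siRNA 644 and 2 with siRNA 878. Without replicate 2 of siRNA 878 the count with siRNA 644 was 6. The count with siRNA 878 was 1 without its replicate 1, any 1 library of siRNA 644 or any 1 control library, and with a replicate block. DESeq2 called 1 lower with siRNA 644. Tubg2 was called higher with both, but at 0.892, 0.346 and 0.931 CPM with siRNA 644 and 0.154, 0.339 and 0.503 CPM with siRNA 878, against 0.0960, 0 and 0.0482 CPM in control cells, its counts were too few for a fold change, and its call with siRNA 878 was lost in 11 of 18 alternatives. Of 11 mitotic phosphatase subunits and inhibitors, 3 were called lower with each siRNA, namely Ppp1cc, Ppp2r1b and Ppp2r2a, with 6 for siRNA 644 without replicate 2 of siRNA 878. They were at -0.51 and -0.60, -0.53 and -0.50, and -0.26 and -0.28. The calls of Ppp2r2a were lost with the GC and length offsets (adjusted p = 0.831 and 0.676). Ensa, an inhibitor of PP2A in mitosis, was called higher with siRNA 878, by 0.33 (adjusted p = 0.0256), a call lost in 10 of 20 alternatives, the replicate block among them (adjusted p = 0.0620).

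**Figure D5:**
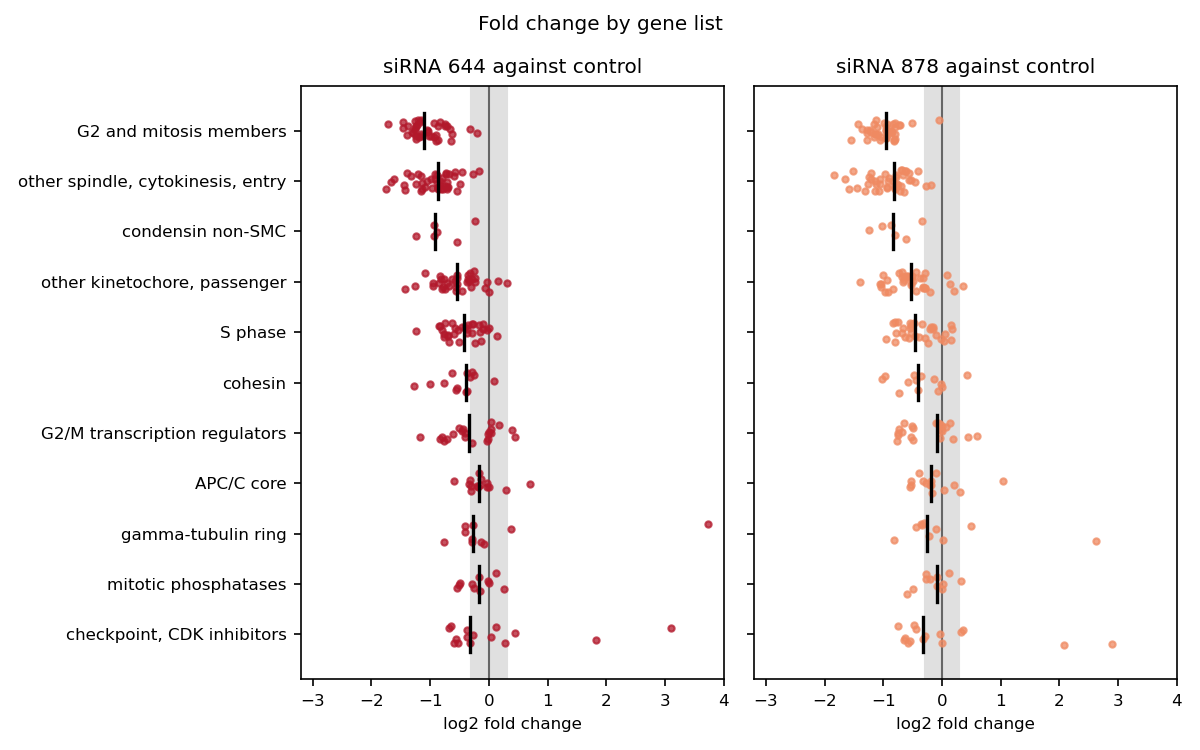
Log2 fold change over control of the members and of 10 further gene lists (dots, 1 per gene) with the list median (black bar) for each siRNA. The grey band is the middle of all tested genes from the 25th to the 75th percentile with their median as a line, and the members have the lowest medians, -1.10 and -0.96.

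The regulators of G2 and M transcription, which include proteins that bind the promoter elements above, held calls in both directions, and most were not called. Of 22 tested, 5 were called lower with each siRNA, where 15% and 15.5% of all genes were. Called higher were 1 with siRNA 644 and 2 with siRNA 878, where 16.6% and 16% of all genes were. The medians were -0.34 and -0.08. Lower calls with siRNA 644 numbered 11 without replicate 2 of siRNA 878 and 3 without replicate 1 or 3 of siRNA 644 or any 1 control library. With siRNA 878 they numbered 3 without replicate 3 of siRNA 644 or control replicate 2, 2 without control replicate 1 or 3, and 3 with a replicate block. The second higher call with siRNA 878 was lost without its replicate 1 or 3 or any 1 control library. Foxm1, the forkhead factor of G2, was at 85.8, 79.4 and 83.5 CPM with siRNA 644 and at 66.0, 75.9 and 61.5 CPM with siRNA 878, against 109, 114 and 118 CPM in control cells, without overlap. It fell by 0.45 ± 0.09 and 0.75 ± 0.09 (adjusted p = 0.00506 and 0.000373). Mybl2, which encodes B-Myb, fell by 0.51 ± 0.16 and 0.53 ± 0.16 (adjusted p = 0.0393 and 0.0342). Its calls were each lost in 8 of 20 alternatives, the replicate block among them with both siRNAs (adjusted p = 0.0666 and 0.0524). Rbl2, the pocket protein p130 of the DREAM complex, fell by 1.17 ± 0.23 and 0.72 ± 0.23 (adjusted p = 0.00485 and 0.0379), and its call with siRNA 878 was lost in 8 of 20 alternatives, the replicate block among them (adjusted p = 0.0642). E2f5 fell by 0.76 and 0.75, and E2f8, a repressive E2F, by 0.61 and 0.68, calls lost in 9 and 2 of 20 alternatives. Dyrk1a, the kinase that promotes DREAM assembly, was called higher by 0.44 with each siRNA (adjusted p = 0.00464 and 0.00434), and Lin52, a MuvB subunit, was called higher with siRNA 878, by 0.59 (adjusted p = 0.0314), lost in 9 of 20 alternatives. E2f1, E2f4 and Nfya were between -0.06 and 0.01 and were not called.

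The G2 checkpoint and CDK inhibitor genes held calls in both directions, at shares not far from those of all genes with siRNA 644. Of 15 tested, 3 were called higher and 3 lower with siRNA 644, and 2 higher and 5 lower with siRNA 878, with medians of -0.31 and -0.32. Lower calls with siRNA 644 numbered 7 without replicate 2 and 6 without replicate 3 of siRNA 878. Those with siRNA 878 numbered 3 without its replicate 1 or replicate 3 of siRNA 644, 1 without any 1 control library, and 2 with a replicate block. Gadd45a, a stress-induced gene that can restrain Cdk1, was at 24.3, 26.6 and 27.5 CPM with siRNA 644 and at 22.8, 19.5 and 25.8 CPM with siRNA 878, against 2.78, 2.90 and 3.42 CPM in control cells. It was called higher by 3.10 ± 0.14 and 2.90 ± 0.14 (adjusted p = 2.21e-06 and 3.38e-06), far outside the spread of its replicates. Sfn, the 14-3-3 sigma protein that keeps Cdk1 out of the nucleus, was at 8.18, 4.94 and 6.05 CPM with siRNA 644 and at 5.96, 10.4 and 6.34 CPM with siRNA 878, against 1.87, 1.77 and 1.73 CPM in control cells. It was called higher by 1.83 ± 0.28 and 2.07 ± 0.28 (adjusted p = 0.00132 and 0.000627). Cdkn1a, the p21 inhibitor, was not called higher with either siRNA. It was at -0.38 with siRNA 644 (adjusted p = 0.0555) and was called lower there in 9 of 20 alternatives, among them DESeq2 (DESeq2 adjusted p = 0.0272). With siRNA 878 it was called lower, at -0.48 (adjusted p = 0.0230), a call lost in 5 of 20 alternatives. Leaving out single libraries moved either call across the threshold. Trp53 was called higher with siRNA 644, by 0.44 (adjusted p = 0.0246), lost in 4 of 20 alternatives, and was at 0.32 with siRNA 878 (adjusted p = 0.0765). Wee1, the kinase that inhibits Cdk1, was at -0.59 with siRNA 644 (adjusted p = 0.0538) and was called lower with siRNA 878, by 0.74 (adjusted p = 0.0224), lost in 4 of 20, the replicate block among them (adjusted p = 0.0534). Topbp1, Atr and Chek1, of the replication checkpoint, were called lower with both. The calls of Topbp1 were lost in 9 and 10 of 20 alternatives, the replicate block among them with both siRNAs (adjusted p = 0.0757 and 0.0739). Those of Atr were lost with the GC and length offsets (adjusted p = 0.279 and 0.156).

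Genes of S phase, which copy the DNA before G2, were called lower in part. Of 32, 22 were called lower with siRNA 644 and 18 with siRNA 878, with 0 higher and medians of -0.43 and -0.46. Rrm1, the large subunit of ribonucleotide reductase, fell by 1.24 ± 0.12 and 0.96 ± 0.12 (adjusted p = 0.000128 and 0.000460), and Lig1, the replicative DNA ligase, by 0.86 and 0.84. Gins1 of the replicative helicase fell by 0.76 and 0.79, and Pola1, the catalytic subunit of DNA polymerase alpha, by 0.83 and 0.78. The calls of Pola1 were lost in 9 and 10 of 20 alternatives, the replicate block among them with both siRNAs (adjusted p = 0.0687 and 0.0676). Differences in median between these lists and the members were not tested.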

How the data were processed

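RNA was sequenced from 9 BV2 libraries, 3 for each siRNA and 3 for control. Per the file headers, the deposited table holds for each library an estimated count per gene, which need not be whole (37.4% of values above 0 were not, at a tolerance of 1e-09), and an FPKM value, both as deposited by the authors. Bowtie2 2.4.5, DESeq2 1.34.0 and the mm39 build are listed, with no role given, in the submitters' processing notes. The counter, the annotation and whether strand was used were not given in the sources used here. Of the gene positions that could be compared, 73.7% were those of RefSeq GRCm38.p6 (80% for the members), so the build of the table's coordinates is open and none is printed.

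Estimated counts were rounded and tested with edgeR 4.0.16 (quasi-likelihood, R 4.3.3), using TMM scaling, filterByExpr (minimum count 10, minimum total 15), 1 model of the 3 groups, and Benjamini-Hochberg adjustment over the 11739 genes kept. SE is the log2 fold change divided by the root of F. The biological coefficient of variation was 14.9%. Every adjusted p is from edgeR unless another tool is named. Alternatives used DESeq2 1.42.0 and limma 3.58.1. Replicate numbers come from the labels. Deviations from the group means of libraries with the same number correlated by 0.175, 0.672 and 0.536 between siRNA 878 and control, so the fit with a replicate block is given beside siRNA 878 results whose call it changed. They correlated negatively between siRNA 644 and control (-0.581 to -0.141) and between siRNA 878 and siRNA 644 (-0.791 to -0.275). The scripts were tested on simulated data. Intervals of shares cover counting error only.

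By the naming rule, every-sample values are given in each role for the members with the lowest and highest average change and the highest level, and each further list is described by up to 4 of its largest changes called with both siRNAs and by calls against its main direction. Members not called are named too. Outside this rule, Kif20b, Prc1, Ube2s, Mybl2, E2f1, E2f4, Nfya, Chek1, Cdkn1a, Wee1 and Cx3cr1 were picked for their values after those were seen. The members and lists were chosen with earlier results of these data known. Of the listed symbols, E2f7, Aqp4, Syt1 and Mog were not analysed here, nor was claspin, whose symbol was misspelled in the list, and 9 TPM columns were not used. A result named by the rule is not reported here.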

Additional observations from a re-analysis of the deposited data

How the results depend on the processing

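Over 20 alternatives the members called lower ranged from 35 to 40 with siRNA 644 and from 35 to 39 with siRNA 878, and no called member changed direction. All genes called against control ranged, when single libraries were left out, from 2343 (without control replicate 1) to 6004 (without siRNA 878 replicate 2) with siRNA 644 and from 2455 to 4824 with siRNA 878 for the same libraries, and came to 5621 with siRNA 878 under the GC and length offsets. Between siRNA 878 and siRNA 644, members called were 0 in the reported fit, 1 with DESeq2, 1 with the offsets and 0 to 7 without single libraries. All genes called there, 177 in the reported fit, were 653 with DESeq2, 298 with library sizes alone, 370 and 323 with limma on log2(FPKM + 1) and log2(FPKM + 0.1), 5 with only those groups, 1358 with the offsets, and 12 (without siRNA 878 replicate 1) to 2072 (without siRNA 878 replicate 2) when single libraries were left out. With a replicate block the count was 14, and 648 with the block and the offsets. Under the block 38 members were called lower with siRNA 644 and 37 with siRNA 878. Over all 3 groups 2 of 9 libraries correlated best with their own number, and between siRNA 644 and control or siRNA 878 the libraries share only a number. Beside the calls of siRNA 878 against control given with the results, the block ended none of the named members' calls. The offsets were chosen after seeing the data. The cause of these shifts was not tested. With 3 libraries a group, small differences between the siRNAs may have been missed, most of all for members with wide spreads, such as Ect2 and Smc2. In the simulated data 28.4% of 1.5-fold and 77.6% of 2-fold changes between the siRNAs were recovered, over tested genes rather than members.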
